A study of Urocitellus parryii with 3 samples.

Results

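miR-103-3p and miR-107-3p are 2 microRNAs of nearly identical sequence, studied here in the liver of a hibernator, the arctic ground squirrel (Urocitellus parryii), at 3 stages of its year. Their reads were taken from the deposited table of placed small RNA reads by a rule on sequence alone: each distinct read that shared its first 18 bases with either mature form was counted once per stage. This gave 76312 reads of 4462 distinct sequences, out of 17086590 placed reads in all, or 0.447%. Each read went to the member with the longer shared start, and reads that fitted both equally were split equally.

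The post-reproduction group (PR) held 6 non-hibernating summer animals at normal body temperature, under 16 h light and 8 h dark, which were anesthetised with isoflurane before they were killed. The late torpor (LT) and early arousal (EA) groups held 4 animals each, under 4 h light and 20 h dark, all carrying implanted temperature transmitters. Per the labels, hibernating animals had passed several torpor bouts and were killed on day 4 of a bout, and how that day applies to early arousal is not given in the sources used here. All squirrels had been trapped in the wild and fed rodent chow, and their ages and sexes were not used here. Equal amounts of RNA from the animals of a stage were pooled into 1 library, so the spread between animals cannot be seen and no test between stages was possible. Wherever post-reproduction is compared, season, light cycle, anesthesia and hibernation cannot be told apart. All intervals are exact 95% intervals that cover counting error of reads only, not the spread between animals. PCR copies of 1 molecule were counted separately, which can make these intervals too narrow.

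Placed reads numbered 5614441 in the PR library, 5611673 in EA and 5860476 in LT. The hepatocyte microRNA miR-122-5p marked all 3 as liver, at 750056, 725052 and 763473 reads per 1000000 placed reads (CPM) in that order. Fewer cells of a type and less RNA per cell cannot be told apart in such libraries.

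In mammals the genes of these microRNAs lie within introns of the pantothenate kinase genes, whose products start the synthesis of coenzyme A. A microRNA is cut from a hairpin by Drosha and Dicer and loaded into an Argonaute protein, which it guides to messages that pair with its seed, bases 2 to 8. Both members have the same seed and are known as regulators of insulin sensitivity in liver and fat, with caveolin-1 and Dicer among their described targets. The 3′ end of a mature microRNA is often shortened, or lengthened by enzymes that add A or U.

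The reads showed how little separates the members. The following lines give the main inserts (the RNA between the adapters) compared here, as the libraries recorded them, with T for U. They are shown because the later results on members and tails rest on the base at position 22 and on what follows it. Capitals mark the seed, the base at position 22 where it is that of a member, and bases added beyond the genome match.
miR-103-3p, 23 nt: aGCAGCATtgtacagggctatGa
miR-107-3p, 23 nt: aGCAGCATtgtacagggctatCa
either member, 21 nt: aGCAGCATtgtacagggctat
miR-103-3p, 22 nt with U: aGCAGCATtgtacagggctatGT
miR-107-3p, 22 nt with U: aGCAGCATtgtacagggctatCT
miR-103-3p, 23 nt with U: aGCAGCATtgtacagggctatGaT
miR-107-3p, 23 nt with U: aGCAGCATtgtacagggctatCaT
miR-103-3p, 25 nt: aGCAGCATtgtacagggctatGaaa

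The members differed by G22C, counted from 1 at the 5′ end, with the miR-103-3p base first. The first 21 bases were the same in both. Every read of the pair was placed at the same 2 positions, and the labels do not name the genome build. The first was on GeneScaffold 2100 (plus strand), where the 23 nt form spans 100822 to 100844, and carried the base of miR-103-3p. The other was on GeneScaffold 2703 (minus strand), spanning 84704 to 84726, and carried the base of miR-107-3p. Gene models for these scaffolds were not used here. The names rest on general knowledge of the mammalian forms, which end as shown. In both places the genome went on with A after base 23, so an added A could not be told from a longer cut there.

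The pair was abundant. Among 198 start families, groups of reads sharing their first 18 bases with a main insert of 20 to 24 nt, it ranked 6 by total reads. Its reads numbered 24939 in PR, 29453 in EA and 21920 in LT. On the CPM scale these were 4442 CPM, 5249 CPM and 3740 CPM. Early arousal was the highest and late torpor the lowest, with post-reproduction between them.

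The early arousal library held 1.18 times the post-reproduction level (interval 1.16 to 1.202). Late torpor held 0.842 times that level (0.827 to 0.857). Both ratios use the same post-reproduction library and share whatever is particular to it. Early arousal against late torpor, which does not use that library, gave the widest gap of the 3, at 1.40 (1.38 to 1.43). Every interval excluded 1, but none of the 3 ratios reached 1.5-fold.

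Ratios wider than these were common among start families down to a limit of 100 reads. Of the start families with at least 100 reads over both libraries, 38.2% were at least 1.5-fold apart between early arousal and post-reproduction. The share was 28.2% between LT and PR and 31.5% between EA and LT. These families include pieces of other small RNAs as well as microRNAs. The median log2 ratio over families was 0.19, -0.08 and 0.20 in the 3 comparisons, where the pair had 0.24, -0.25 and 0.49. Relative to that median the pair lay 0.05 above it in EA against PR, 0.17 below it in LT against PR, and 0.29 above it in EA against LT. In the last comparison 41 of 162 families had a higher ratio than the pair.

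Scaling by trimmed mean of M-values over the start families shifted every log2 ratio of EA by -0.12 against PR and by -0.20 against LT. The 3 ratios of the pair were then 1.09 (1.07 to 1.11), 0.891 (0.875 to 0.907) and 1.22 (1.203 to 1.25). With median-of-ratios scaling they were 1.05, 0.888 and 1.18. The order of the 3 libraries stayed the same under each of the scalings tried.

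**Figure D1:**
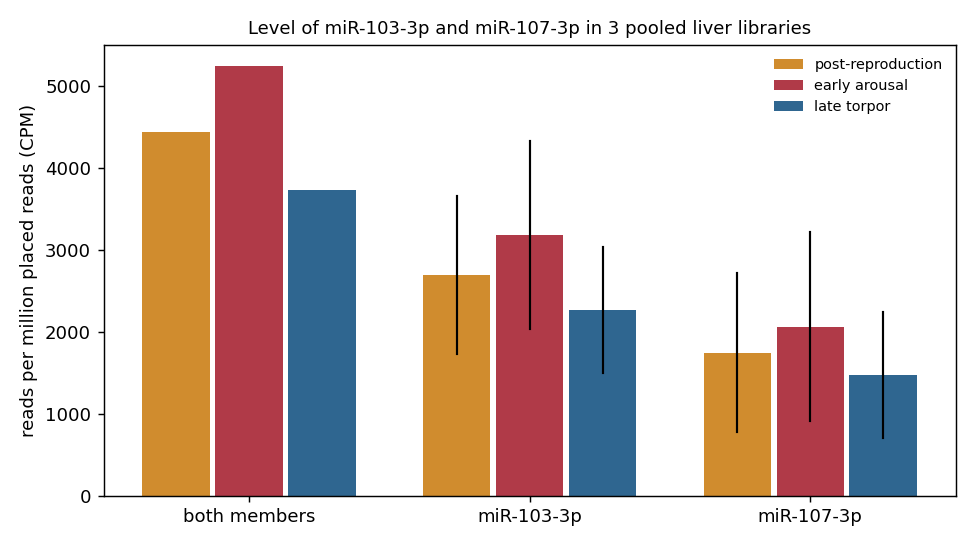
Level of the pair and of each member in reads per 1000000 placed reads (CPM), 1 bar per library, with equally split ties in the member bars. Black lines run from the reads that carried the member's own base 22 up to those plus all tied reads, and early arousal has the highest bar in each group, at 5249 CPM for both members together.

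**Figure D2:**
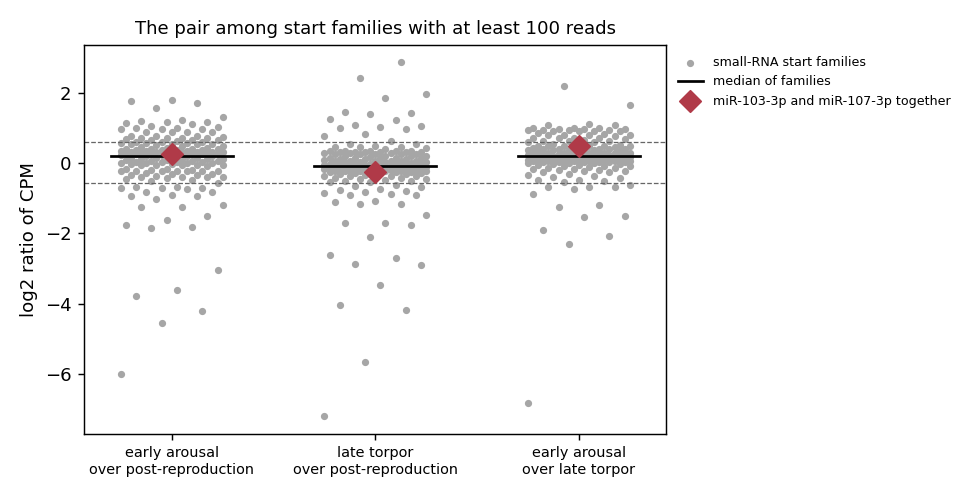
Log2 ratio of CPM in each of the 3 comparisons for start families with at least 100 reads over both libraries (grey points, spread sideways only for visibility), their median (black line) and the pair (diamond). Dashed lines mark 1.5-fold, and the pair lies inside them in each comparison, at 0.24, -0.25 and 0.49.

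How much of this belonged to each member could be read only in part, because 43.0% of the pair's reads fitted both equally. These 32845 reads ended at or before base 21, or departed from both members at or before base 22. With ties split equally, miR-103-3p stood at 2694 CPM in PR, 3185 CPM in EA and 2270 CPM in LT. Reads that carried its own base gave a floor of 1726, 2033 and 1499 CPM in the same order. Adding all tied reads gave a ceiling of 3662, 4338 and 3042 CPM. miR-107-3p stood at 1748, 2063 and 1470 CPM with ties split equally. Its floor was 780, 911 and 699 CPM, and its ceiling 2716, 3216 and 2241 CPM. Even the floor of miR-107-3p kept the order of the libraries, with early arousal highest and late torpor lowest.

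Decided reads alone gave smaller ratios in the comparison within the hibernation season. For early arousal against late torpor, the ratio was 1.36 (1.32 to 1.39) in miR-103-3p, with 1.30 (1.25 to 1.36) in miR-107-3p. Reads that fitted both had 1.49 (1.45 to 1.54), above either member, and their interval overlapped neither. In late torpor against post-reproduction the ratio was 0.869 (0.844 to 0.894) for miR-103-3p and 0.895 (0.858 to 0.935) for miR-107-3p, and 0.797 (0.775 to 0.819) for the reads that fitted both. In early arousal against post-reproduction the 3 values were 1.18 (1.15 to 1.21), 1.17 (1.12 to 1.22) and 1.19 (1.16 to 1.22), all with overlapping intervals. The undecided reads thus had a wider gap between late torpor and the other libraries than the decided reads had. Most were 21 nt forms, but the 21 nt form without added bases made up 28.5%, 27.5% and 27.1% of the pair's inserts in PR, EA and LT. Among inserts that fitted both, those departing from the genome by other than added U or A alone made up 9.38%, 11.8% and 9.12%. Which of these reads gave the wider gap was not tested.

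The balance of the members differed little between stages. Among inserts that reached base 22 and carried G or C there, miR-107-3p made up 31.3% in post-reproduction (4126 of 13172, interval 30.5 to 32.1). It made up 31.1% in early arousal (4901 of 15755, 30.4 to 31.8), with 31.9% in late torpor (3939 of 12329, 31.1 to 32.8). The 3 intervals overlap. This corresponds to 2.19, 2.21 and 2.13 inserts of miR-103-3p for each of miR-107-3p.

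A misread base can move a read between members, so bases 19 to 21, which are the same in both, were examined in inserts of at least 23 nt. Another base than the genome's stood at position 21 in 0.478%, 0.511% and 0.334% of inserts in PR, EA and LT. Position 20 had 2.02%, 2.03% and 1.39%, and position 19 had 0.374%, 1.07% and 0.325%. Late torpor had the lowest share at each of these positions. The adapter adds a second way to confuse the members, since its first bases make a 20 nt insert read like miR-107-3p through base 22. Comparing whole reads without removing the adapter gave miR-107-3p 434, 510 and 360 more decided reads in the 3 libraries, and a share of 33.2%, 33.0% and 33.6%.

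Insert length could be read in 92.8% of the pair's reads in PR, 94.6% in EA and 94.95% in LT. The lengths fell into a pair of peaks, at 23 nt and at 21 nt, with fewer inserts of 22 nt between them. The 23 nt inserts made up 45.3% in PR (44.7 to 46.0), 47.0% in EA (46.4 to 47.6) and 46.9% in LT (46.2 to 47.5). The 21 nt inserts made up 29.8% (29.2 to 30.4), 29.0% (28.4 to 29.5) and 28.1% (27.5 to 28.7). Inserts of 22 nt made up 16.8% (16.3 to 17.3), 14.9% (14.5 to 15.3) and 15.5% (15.0 to 16.0).

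Both hibernation-season libraries also held more of the longest forms, by a small margin. Inserts of 24 nt made up 3.65% (3.41 to 3.90), 4.38% (4.14 to 4.63) and 4.64% (4.36 to 4.94), and those of 25 nt made up 1.64%, 1.94% and 2.30%. The mean length was 22.24 nt in PR, 22.29 nt in EA and 22.32 nt in LT. The same direction was seen in most abundant small RNAs. Of 41 start families, the pair included, whose inserts numbered at least 1000 per library, 30 had a longer mean in EA than in PR and 31 had a longer mean in LT. The pair's difference of 0.05 nt in early arousal was exceeded by 14 families and that of 0.08 nt in late torpor by 12. The pair's 45.3% of 23 nt inserts in post-reproduction stands beside a median of 19.1% over these families, of which 3 had more.

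**Figure D3:**
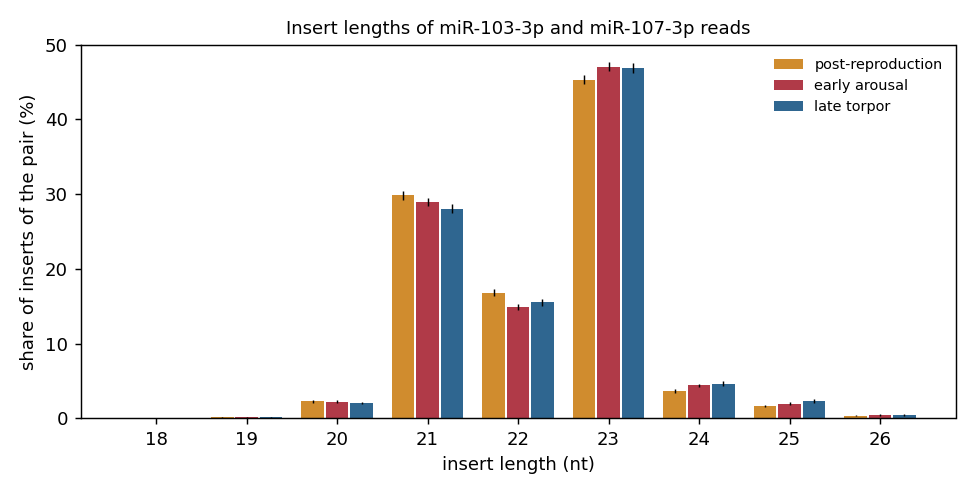
Share of the pair's inserts at each length from 18 to 26 nt, 1 bar per library, with exact 95% intervals for counting error. Peaks stand at 23 nt (45.3% to 47.0%) and 21 nt (28.1% to 29.8%) in all 3 libraries.

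The genome match ended at base 22 more often in miR-107-3p than in miR-103-3p. Among decided inserts, those whose genome match ended at base 22 made up 31.0% (30.0 to 32.0) for miR-103-3p in PR, 28.8% (28.0 to 29.7) in EA and 31.1% (30.1 to 32.1) in LT. For miR-107-3p they made up 43.3% (41.8 to 44.8), 44.3% (42.9 to 45.7) and 42.9% (41.4 to 44.5). In each library the miR-107-3p interval lay above that of miR-103-3p. Shorter inserts cannot be divided between the members, so these shares leave out the 21 nt form.

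Forms longer than 23 nt that still matched the genome belonged almost only to miR-103-3p. Such inserts without further added bases made up 2.70% of miR-103-3p in PR (244 of 9046), 2.63% in EA (286 of 10854) and 3.13% in LT (263 of 8390). For miR-107-3p the shares were 0.194% (8 of 4126), 0.326% (16 of 4901) and 0.305% (12 of 3939). The intervals of the members did not overlap in any library. In miR-103-3p the 25 nt form, shown above with its A residues, was more frequent over the 3 libraries (480 inserts) than the 24 nt form (313 inserts). Added A and longer cutting give the same letters here, and which applies was not tested.

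Bases that did not match the genome were found at the end of 23.5% of the pair's inserts in post-reproduction (22.96 to 24.1). The share was 26.3% in early arousal (25.8 to 26.9), with 25.2% in late torpor (24.6 to 25.8). Most of these tails were U alone, at 16.1% (15.6 to 16.6), 17.7% (17.2 to 18.1) and 17.8% (17.2 to 18.3) of inserts. Tails of A alone made up 2.17%, 2.28% and 2.18%, with overlapping intervals. The rest, which include reads with another base at positions 19 to 21, made up 5.25%, 6.39% and 5.28%. Both members end in A and the genome goes on with A. An A added in place of that final A, or directly after it, therefore counts as genome match and not as a tail. In post-reproduction, A tails stood on 3 of 9046 inserts of miR-103-3p, 0 of 4126 of miR-107-3p and 500 of 9967 that fitted both. The shares of U and A tails therefore cannot show whether U was added more often than A.

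Over the 41 families the median share of inserts with any tail was 23.5% in PR, 27.9% in EA and 25.6% in LT, near the pair's share. It was higher than in PR in 36 of 41 families for EA and in 31 for LT. A tail is whatever follows the genome match, so a misread base inside an insert also counts as one. In the pair, tails other than U or A alone were most frequent in EA (values above). The pair's differences of 2.84 and 1.72 percentage points compare with medians of 2.90 and 1.59. For U tails the median share was 3.86% in PR, 4.38% in EA and 4.67% in LT, under the pair's share. Of the other 40 families, 8, 9 and 8 had more U tails than the pair in the 3 libraries. The difference in U tails from PR was positive in 33 of 41 families for EA and in 31 of 41 for LT. The pair's differences in U tails, 1.59 and 1.68 percentage points, compare with medians of 0.68 and 0.97.

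Where the U was added depended on where the genome match ended. Shares here are of inserts with no tail or a tail of U alone. After base 22 added U was frequent in both members. In miR-103-3p, 38.6% of the inserts ending there carried added U in PR (1021 of 2643, 36.8 to 40.5), 42.8% in EA (1247 of 2911, 41.0 to 44.7) and 43.2% in LT (1033 of 2389, 41.2 to 45.3). In miR-107-3p these shares were 40.5% (704 of 1739, 38.2 to 42.8), 51.9% (1104 of 2129, 49.7 to 54.0) and 48.2% (790 of 1640, 45.7 to 50.6). In post-reproduction the intervals of the members overlapped. In both hibernation-season libraries the miR-107-3p interval lay above that of miR-103-3p.

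After base 23 the members stood the other way round. In miR-103-3p, 8.28% of such inserts carried added U in PR (490 of 5918, 7.59 to 9.01), 9.39% in EA (689 of 7334, 8.74 to 10.1) and 10.5% in LT (572 of 5433, 9.72 to 11.4). In miR-107-3p only 1.55% did in PR (36 of 2324, 1.09 to 2.14), 1.92% in EA (52 of 2704, 1.44 to 2.51) and 2.19% in LT (49 of 2233, 1.63 to 2.89). The members share the final A, and the only mature base that differs is the one before it. What gives the difference in added U between the members was not tested. The 21 nt form, which either member can give, carried added U in 15.5% (14.7 to 16.3), 17.01% (16.2 to 17.8) and 15.9% (15.0 to 16.8) of inserts.

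**Figure D4:**
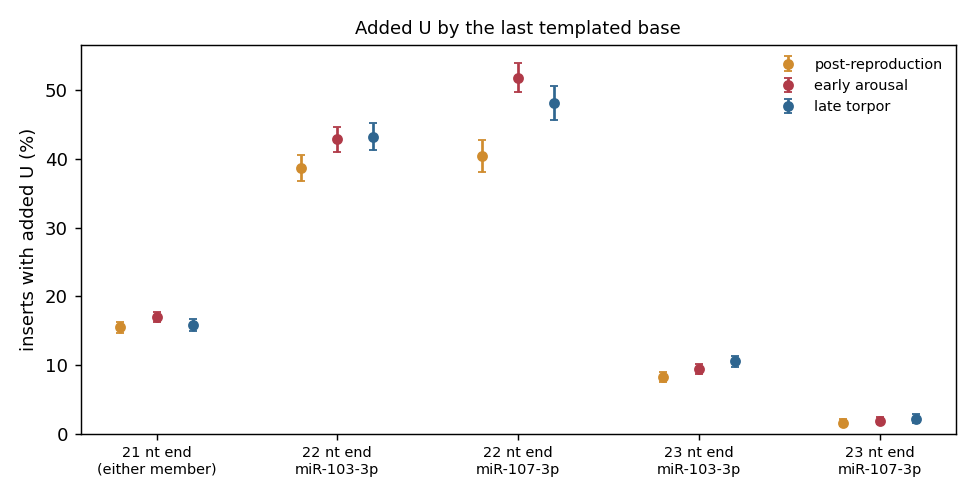
Share of inserts with added U among those whose genome match ended at base 21, 22 or 23, by member and library, with exact 95% intervals for counting error. The 22 nt end of miR-107-3p runs from 40.5% in post-reproduction to 51.9% in early arousal, and its 23 nt end stays between 1.55% and 2.19%.

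Over all decided inserts, U tails made up 16.8% of miR-103-3p in PR (16.1 to 17.6), 18.0% in EA (17.3 to 18.8) and 19.4% in LT (18.6 to 20.3). In miR-107-3p they made up 18.0% (16.8 to 19.2), 23.6% (22.4 to 24.8) and 21.3% (20.0 to 22.6). The highest value was that of late torpor for miR-103-3p and that of early arousal for miR-107-3p. In both members, however, the intervals of these 2 libraries overlapped. For miR-107-3p the difference between EA and PR was 5.63 percentage points, exceeded by 1 of 41 families. That between LT and PR was 3.34 points, exceeded by 6, and that between EA and LT was 2.29 points, exceeded by 0. For miR-103-3p the difference between EA and PR was 1.21 points, exceeded by 13 families. That between LT and PR was 2.57 points, exceeded by 8, and that between EA and LT was -1.36 points, with 35 families above it. The counts set decided inserts against all inserts of other families, so they describe and do not test.

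The share of reads with an adapter differed between libraries, from 84.2% to 88.7% of all reads. With adapters read without any mismatch, a setting chosen after seeing the data, the U share after base 22 of miR-103-3p was 41.3% in PR, 43.8% in EA and 44.1% in LT. In miR-107-3p it was 42.1%, 53.5% and 49.6%. The gap of miR-107-3p between early arousal and post-reproduction was 11.4 percentage points either way. That of miR-103-3p went from 4.21 to 2.55 points, and between late torpor and post-reproduction from 4.61 to 2.85. The untailed 22 nt form of miR-107-3p made up 25.1% of its inserts in PR (23.8 to 26.4), 20.9% in EA (19.8 to 22.1) and 21.6% in LT (20.3 to 22.9). Its 22 nt form with U went the other way, at 17.1% (15.9 to 18.2), 22.5% (21.4 to 23.7) and 20.1% (18.8 to 21.3).

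**Figure D5:**
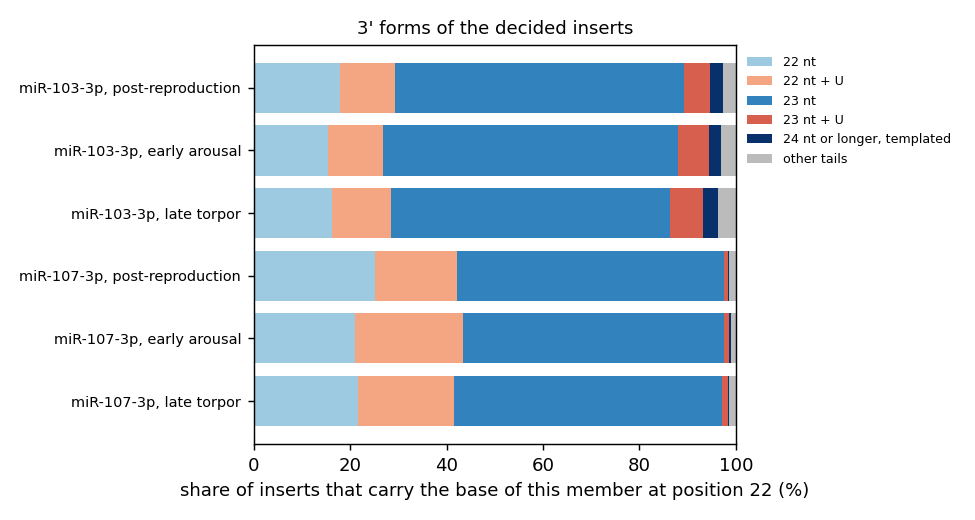
Forms of the inserts that carried each member's base at position 22, as shares that add up to 100% in each library. The 22 nt form with U takes 17.1% to 22.5% of miR-107-3p and 11.3% to 12.3% of miR-103-3p, while 23 nt with U takes 5.42% to 6.82% of miR-103-3p and 0.873% to 1.24% of miR-107-3p.

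Other starts were rare. Over the 3 libraries 47 reads began 1 base before the main start, 15 began 1 base after it, 44 began 2 bases after it and 34 began 3 bases after it. In post-reproduction 3 reads began 37 bases upstream of miR-103-3p, on the side of the hairpin's other arm, and 1 read began 56 bases upstream of miR-107-3p. None began at these places in early arousal or late torpor, which allows up to 0.535 and 0.512 CPM.

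The pair belongs to a wider group of microRNAs that share the letters AGCAGC. In the pair these are bases 1 to 6, giving the seed GCAGCAT. In its relatives they are bases 2 to 7, giving the seed AGCAGCA in the 6 with at least 100 reads. These relatives are known for restraining cell division. Of 7 relatives listed, those 6 passed the limit of 100 reads over the 3 libraries and miR-503-5p had no read. All 6 ratios of early arousal to post-reproduction were above 1, with a median of 1.16 and none at 1.5-fold. Most of their counting intervals included 1. For late torpor against post-reproduction 3 were above and 3 below 1, with a median of 0.998. For early arousal against late torpor 4 were above 1, with a median of 1.18, and 1 passed 1.5-fold, miR-497-5p at 1.90. Over all start families with at least 100 reads the median ratios were 1.14, 0.947 and 1.15 in the same 3 comparisons, near those of the list. The most abundant, miR-16-5p, stood at 91.7 CPM in PR, 99.1 CPM in EA and 117 CPM in LT, highest in LT, where the pair was lowest.

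Of 16 microRNAs known in lipid and glucose metabolism, 9 had at least 100 reads. Their median ratio was 0.932 for EA against PR, 0.771 for LT against PR and 1.10 for EA against LT. One passed 1.5-fold in the last comparison, miR-143-3p, an insulin-pathway and smooth-muscle microRNA, at 1.63, and none in the others. The liver-abundant miR-378a-3p stood at 4215, 2939 and 2864 CPM, lower in both hibernation-season libraries. miR-29a-3p, known to act on insulin signalling, stood at 4620, 5172 and 4720 CPM. Against these the pair had the order of miR-143-3p, which stood at 1817, 2283 and 1402 CPM. miR-29c-3p of the same list also had that order, at 531, 536 and 482 CPM, with EA barely above PR.

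Of 16 listed microRNAs with at least 1000 reads, the 5 nearest to the pair were found by the distance between their 2 log2 ratios to post-reproduction. They were miR-128-3p at 0.12, miR-143-3p at 0.15, miR-29c-3p at 0.25, miR-29a-3p at 0.29 and miR-199a-3p at 0.29, over 3 libraries only.

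Markers of other cell types were read in the same way. The mesenchymal and stellate list summed to 4029 CPM in PR, 4431 CPM in EA and 3169 CPM in LT. The sum had the order of the pair, but its 2 markers of 5 with at least 100 reads did not share it. miR-143-3p had that order (values above), while miR-199a-3p was highest in post-reproduction, at 2203, 2135 and 1762 CPM. The neural list also summed in the pair's order, at 1511, 1603 and 1248 CPM. Of its 3 markers, all above 100 reads, miR-128-3p (901, 979 and 751 CPM) and miR-9-5p (234, 341 and 219.9 CPM) had that order, and miR-124-3p was highest in post-reproduction, at 376, 283 and 278 CPM. Their part in the pair's levels was not tested. The erythroid list had another order, at 172, 137 and 273 CPM, with all 3 markers above 100 reads and highest in late torpor. miR-144-3p (19.4, 11.8 and 34.5 CPM) and miR-486-5p (88.9, 46.3 and 111 CPM) were lowest in early arousal. miR-451a-5p was lowest in post-reproduction, at 63.8, 78.9 and 127 CPM. The leukocyte list summed to 71.6, 76.3 and 101 CPM with miR-155-5p at 0. Its 2 markers of 6 with at least 100 reads had different orders. miR-142-5p stood at 47.2, 61.5 and 79.5 CPM, and miR-146a-5p at 21.7, 13.5 and 19.1 CPM. The endothelial list summed to 27.6, 31.9 and 34.3 CPM. Neither of its 2 markers had that order, with miR-126-3p at 9.80, 8.55 and 12.1 CPM and miR-126-5p at 17.8, 23.3 and 22.2 CPM. The epithelial and biliary list summed to 41.7, 18.2 and 20.0 CPM with miR-200c-3p at 0. Its 2 markers of 5 with at least 100 reads had that order. The muscle list summed to 1578, 3059 and 2150 CPM, nearly all from miR-1-3p. Its other marker with at least 100 reads, miR-206-3p, was highest in EA and lowest in LT, at 10.9, 12.3 and 9.90 CPM. The third, miR-133a-3p, had 1 read in all. In the hepatocyte list miR-194-5p had no placed read, and the list summed to 750091, 725088 and 763497 CPM, nearly all from miR-122-5p. Of the rest, miR-192-5p was lower in both hibernation-season libraries, at 21.9, 16.0 and 11.4 CPM. miR-122-3p was highest in early arousal, at 13.0, 19.8 and 13.1 CPM.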

How the data were processed

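Per the labels, each pool gave about 10 µg of RNA for size selection at 18 to 30 nt, and libraries had 15 PCR cycles. The authors deposited a single text table whose lines are genome positions. An entry holds a deposited read of 30 bases with its raw count and stage, and capitals mark the placed bases. No source used here gives the aligner, the build or the filters. The table holds 4218154 entries, and since multiply placed reads repeat their count at every position, each was counted once per stage.

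The 3′ adapter was taken from the labels and searched for after 18 to 26 bases, allowing 1 mismatch in each 5 bases. The pair was found by a short start key, and its templates were read from the placed parts at its 2 positions. A tail is what follows the genome match within the insert. Levels were scaled to all placed reads, because no table of mature sequences was used here to choose miRNAs for trimmed mean of M-values scaling. That scaling was instead run over start families as an alternative chosen after seeing the data.

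Of 824 groups of reads sharing 18 bases with at least 100 reads, 473 were left out because their main insert was not 20 to 24 nt or the adapter was mostly missing. Another 153 were left out as likely variants of a more abundant group, which can drop real family members. Listed miRNAs (51) were named by their first 14 to 20 bases from general knowledge, with reads of any 3′ end counted. The text names the pair, at most 4 of the most abundant miRNAs of both context lists, and the 5 nearest miRNAs. miR-497-5p, miR-1-3p and the markers named beside sums were chosen after their values were seen. The members and lists were chosen with earlier results of these data known.

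Ratios have exact conditional binomial intervals and shares have Clopper-Pearson intervals. Those of the member levels take the split of ties as exact. The limit for a count of 0 is 3 counts. The code was tested on simulated data. Python 3.11.15, numpy 2.4.6, scipy 1.17.1 and matplotlib 3.10.9 were used.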

Additional observations from a re-analysis of the deposited data

How the results depend on the processing

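The direction of each level ratio was the same under every alternative run. Values below are log2 ratios in the order early arousal over post-reproduction, late torpor over post-reproduction and early arousal over late torpor. With trimmed mean of M-values scaling, chosen after seeing the data, the pair had 0.12, -0.17 and 0.29, miR-103-3p 0.13, -0.17 and 0.29, and miR-107-3p 0.12, -0.17 and 0.29. With median-of-ratios scaling the pair had 0.072, -0.17 and 0.24, miR-103-3p 0.073, -0.17 and 0.24, and miR-107-3p 0.070, -0.17 and 0.24. Plain scaling to start-family reads gave early arousal over late torpor 0.52 for the pair and for miR-103-3p. With inserts identical to a mature form only, the pair had 0.27, -0.19 and 0.46, miR-103-3p 0.29 for early arousal over post-reproduction, and miR-107-3p -0.13 and 0.34 for the comparisons with late torpor. Leaving out tied reads gave -0.20 and 0.44 for miR-103-3p and -0.16 and 0.38 for miR-107-3p in those comparisons. A mismatch in the first 18 bases, shifted starts, ties split by decided reads and whole-read matching left the level ratios within their counting intervals.

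The miR-107-3p share was 27.3% in PR, 26.1% in EA and 28.0% in LT when base 23 also had to match, which drops its 22 nt forms, and 33.2%, 33.0% and 33.6% with whole reads. The 23 nt share was 46.9%, 48.3% and 48.05% with adapters free of mismatches, and 35.9%, 34.6% and 34.0% with each distinct sequence counted once, where early arousal and late torpor were no longer above post-reproduction. The tail share was 76.7%, 80.0% and 74.6% with distinct sequences, which weights rare misreads like abundant forms, and 24.6%, 27.4% and 26.5% when only mature bases counted as templated. With at least 1000 reads over both libraries, 11, 9 and 13 families were 1.5-fold apart, in place of 63 of 165, 46 of 163 and 51 of 162. These came from fewer families, whose number is not given here, so no share can be set beside 38.2%, 28.2% and 31.5%. Leaving out multiply placed reads left none. No paired analysis was possible because each stage has 1 library, and no replicate could be left out. Depth did not limit the pair, but 43.0% of its reads cannot be assigned to a member at any depth.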
